A study of Mus musculus with 9 samples.

Results

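The 78 genes described here encode the proteins of the cytosolic ribosome. They were chosen by symbol, as Rpl or Rps followed by a number and at most 1 letter, with Rplp0, Rplp1, Rplp2 and Rpsa added, and kept where the mean FPKM of the 9 libraries reached 1. FPKM is a read count scaled to the length of the transcript and to the mapped reads of the library. Of 24346 gene symbols listed, 81 matched the names and 3 of these lay under the limit, so that 46 large-subunit and 32 small-subunit genes were kept. The nearest gene above the limit was Rps4l, with a mean of 6.97 FPKM. Just below it was Rpl39l with 0.582 FPKM, and Rpl10l and Rpl3l had 0.128 and 0.0379 FPKM. These 3 are copies of Rpl39, Rpl10 and Rpl3 known for expression in testis or muscle.

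The ribosome is built from a small subunit, which reads the mRNA, and a large subunit, which joins amino acids, and almost every ribosomal protein is needed in a single copy per particle. Ribosomal protein mRNAs are among the most abundant mRNAs of resting lymphocytes and typically begin with a cytosine followed by a run of pyrimidines, the terminal oligopyrimidine (TOP) motif. Through this motif their translation follows the kinase complex mTORC1 and the binding protein LARP1, whereas their transcription and the assembly of ribosomes are promoted by the factor Myc when B cells are activated.

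The libraries came from sorted splenic B cells of wild-type C57BL6 mice, with no transgene or treatment in any group. FO B (Young) cells are follicular B cells of 8-week-old mice and FO B (Aged) cells are the same population of 50-week-old mice, both sorted as B220hi CD43- CD23+ CD21lo. ABCs (Aged) are age-associated B cells of 50-week-old mice, a subset that accumulates with age and is linked to autoimmunity, sorted as B220hi CD43- CD23- CD21lo CD11b+ CD11c+. Each group had 3 libraries, and the study counts its replicates as mice. ABCs of young mice were not analysed here, so that age and subset can be compared only through FO B cells. The study asked which genes set ABCs apart. All 3 possible pairs of groups are compared below.

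The labels fitted the markers. Fcer2a and Cr2, which encode CD23 and CD21, summed to 844 to 1194 FPKM in FO B cells and 1.21 to 15.3 FPKM in ABCs. Tbx21, Itgax and Itgam, which mark ABCs, summed to 2.55 to 9.34 FPKM in FO B cells and 278 to 292 FPKM in ABCs. The sum of a plasma cell list of 6 genes was higher in ABCs, with 191 to 225 FPKM against 110 to 148 FPKM in FO B cells. Its Xbp1, Jchain, Sdc1 and Prdm1 were higher in every ABC library than in any FO B library. Irf4 was not, at 11.1 to 20.7 FPKM against 17.1 to 22.7 FPKM, and Tnfrsf17 was at or below 0.611 FPKM throughout. A T cell list stayed at or below 0.865 FPKM. The size of 1 read in the low values gave approximately 7350000 to 9070000 mapped reads per library. Replicate 3 of ABCs stood apart for the ribosomal protein genes, as described below, and its summed B cell markers (6495 FPKM) were also the lowest of the 9 libraries (8036 to 8743 FPKM in the others).

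Ribosomal protein genes were among the most highly expressed genes of all 3 populations. The median gene had a mean of 1080 FPKM over the 9 libraries, 45 of the 78 had at least 1000 FPKM and 5 had under 100 FPKM. Together they held 43 of the 100 and 63 of the 200 genes with the highest mean. The highest levels were those of Rpl41 (4324 FPKM), which encodes a peptide of very few residues, Rps18 (3932 FPKM), Rps29 (3562 FPKM), Rpl37a (3406 FPKM) and Rps19 (3324 FPKM). At the other end were Rps4l (6.97 FPKM), Rpl26 (43.7 FPKM), Rpl30 (44.0 FPKM), Rps15a (82.3 FPKM) and Rpl22 (83.0 FPKM), although the products of all but Rps4l are regular components of the particle.

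The genes share a short, dispersed and much copied structure in the annotation (GENCODE M21, which uses GRCm38, the same assembly as mm10). They lie on 19 chromosomes, with 14 on chromosome 7 and 4 on chromosome X, and their main transcripts have a median of 882 bases against 2821 bases for the genes with at least 1 FPKM. Of the 78, 77 are annotated as protein-coding, whereas Rps4l is a single-exon transcribed pseudogene on chromosome 6. Within 29 genes, on the same strand, lie 56 annotated small nucleolar RNAs, which guide the modification of ribosomal RNA. For 60 genes the annotation names at least 1 pseudogene, 298 in all. At least 1 window as long as a read was identical to a transcript of another gene in 73 of the 78, and in 25 genes this held for over 50% of the windows, so that reads of these genes may be divided between copies.

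The TOP motif lies at the start of the transcript, and the starts of genes whose values are discussed below are shown here. Each line gives 15 bases on either side of the RefSeq start (GRCm38.p6, transcribed strand, 5′ to 3′), with the longest run of C and T in capitals. The first 5 genes had the largest called falls in ABCs among those with an entry in the promoter table, and the last 4 were called higher than the median gene of the set.
Rpl12 (chr2:32961697-32961726, plus strand): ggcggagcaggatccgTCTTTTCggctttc
Rps19 (chr7:24884577-24884606, plus strand): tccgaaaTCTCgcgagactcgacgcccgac
Rpl38 (chr11:114668565-114668594, plus strand): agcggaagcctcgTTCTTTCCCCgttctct
Rps16 (chr7:28350674-28350703, plus strand): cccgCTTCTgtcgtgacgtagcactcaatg
Rpl26 (chr11:68901551-68901580, plus strand): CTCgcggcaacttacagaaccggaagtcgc
Rps27l (chr9:66946071-66946100, plus strand): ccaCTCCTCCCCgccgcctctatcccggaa
Rpl41 (chr10:128549154-128549183, minus strand): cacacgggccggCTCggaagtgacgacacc
Rps9 (chr7:3704026-3704055, plus strand): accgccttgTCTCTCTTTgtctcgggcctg
Rpl35 (chr2:39005117-39005146, minus strand): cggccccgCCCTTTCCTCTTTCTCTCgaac
In the starts shown, the runs are 3 to 10 bases long in the first 5 genes and 3 to 18 bases in the last 4, and both sets hold long and short runs. In Rpl26 and Rpl41 the longest run is 3 bases, and in Rpl26 it lies at the upstream end of the window. RefSeq starts can lie some bases away from those used in B cells. Where a gene had several listed starts, only the first is shown. Another listed start of Rps19 holds a run of the kind counted in the next paragraph.

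Of the 78 genes, 57 were among 27025 genes with a promoter entry, each entry reaching from 250 bases before to 50 bases after a start. Some genes had several entries, and a gene was counted where any of them held the motif. A C followed by at least 4 C or T within 25 bases of the start, on the transcribed strand, was present in 47 of the 57 (82.5%), against 56.8% of all genes with an entry. The letters CCGGAAG, the core bound by ETS factors, were found on either strand in 24 (42.1%) against 9.93% of all genes with an entry, and GGGCGG, the GC box, in 35 (61.4%) against 38.2%. AAGATGGC, bound by YY1, occurred in 5 (8.77%) against 3.19%, the E-box CACGTG in 6 (10.5%) against 8.09% and TATAAA in 6 (10.5%) against 15.7%. CCGGAAG and AAGATGGC can share the letters AAG, and each motif was counted on its own.

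The share of the ribosomal protein genes in the summed FPKM of each library gave their level as a whole. In FO B (Young) the 78 genes made up 15.1%, 15.5% and 16.4% of the sum. In FO B (Aged) they made up 15.5%, 14.98% and 16.5%. In ABCs they made up 13.7%, 13.6% and 10.8%, so that each of the 3 ABC libraries lay below all 6 FO B libraries. The mean was 15.6% ± 0.65 (SD, n = 3) in FO B (Young), 15.7% ± 0.80 (SD, n = 3) in FO B (Aged) and 12.7% ± 1.62 (SD, n = 3) in ABCs. The difference between ABCs and FO B (Aged) was -2.96 percentage points, and -2.02 without replicate 3 of ABCs. In bulk RNA, fewer cells of a type and less of an mRNA per cell cannot be told apart, and a share says nothing of the amount of RNA per cell.

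**Figure D1:**
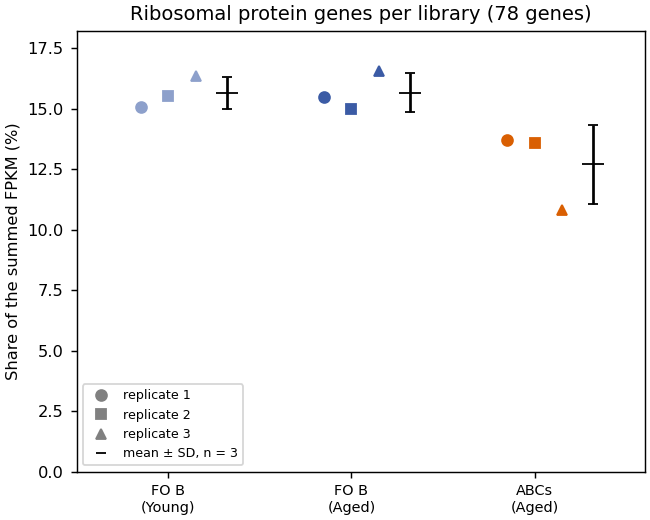
Share of the summed FPKM (%, vertical axis) held by the 78 ribosomal protein genes in each library, by group, with symbols for replicates and bars for the mean ± SD of 3 libraries. The 3 ABC libraries lie at 13.7%, 13.6% and 10.8%, below the 6 FO B libraries at 14.98% to 16.5%.

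Both subunits were lower in ABCs. The summed FPKM of small-subunit genes divided by that of large-subunit genes was 0.865 ± 0.0042 (SD, n = 3) in FO B (Young), 0.869 ± 0.0059 in FO B (Aged) and 0.856 ± 0.0167 in ABCs. The ratio was 0.866 in replicates 1 and 2 of ABCs, within the FO B range of 0.861 to 0.876, and 0.837 in replicate 3.

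Single libraries stood apart over nearly the whole set. Replicate 3 of ABCs was below both other ABC libraries for 76 of the 78 genes, with a median difference on the log2(FPKM + 1) scale of -0.32 from their mean, against 0.01 over all genes. Mki67 and Top2a, which mark dividing cells, were highest in that library (3.49 and 8.40 FPKM, against 1.83 to 1.93 and 3.45 to 4.75 FPKM in the other ABC libraries), and their part in the result was not tested. Replicate 3 of FO B (Aged) was above both other libraries of its group for 76 of the 78 genes, with a median difference of 0.19. The summed FPKM of all genes was also higher in that library (716654, against 678517 and 683211 in replicates 1 and 2). The share of the 78 in that sum was higher too (16.5%, against 15.5% and 14.98%). No share of all genes is given for the counts of genes in this paragraph. With replicates 1 and 2 of ABCs alone, 68 of the 78 genes were below the mean of FO B (Aged), with a median difference of -0.19. The median coefficient of variation of a gene within its group was 4.06% in FO B (Young), 8.33% in FO B (Aged) and 12.6% in ABCs.

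**Figure D2:**
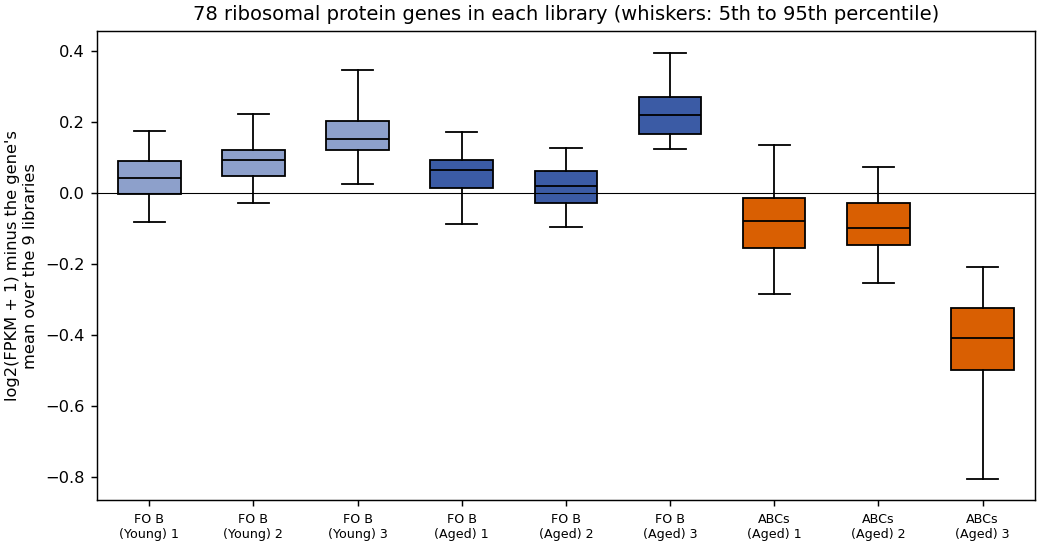
Boxes show the 78 ribosomal protein genes in each library as log2(FPKM + 1) minus the mean of the gene over the 9 libraries, with quartiles, median and whiskers from the 5th to the 95th percentile. All 3 ABC boxes have medians under 0, with replicate 3 lowest, and replicate 3 of FO B (Aged) is the highest of the 9.

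ABCs were compared with FO B cells of the same age to ask how the subsets differ. No ribosomal protein gene was called higher in ABCs and 29 of the 78 (37.2%) were called lower, while among all 10412 genes tested 19.4% were called higher and 16.5% lower (limma on log2(FPKM + 1), Benjamini-Hochberg FDR under 0.05, n = 3 libraries each). The mean was lower in ABCs for 75 of the 78, and for 51.4% of all genes. The 3 ABC libraries lay below all 3 FO B (Aged) libraries for 53 genes (67.9%, against 26.3% of all genes) and above them for 2 genes (against 26.3% of all genes), Rps27l among them. The median log2 difference was -0.29 (quartiles -0.39 and -0.21), which is 81.9% of the level in FO B (Aged), against a median of -0.01 (quartiles -0.26 and 0.28) over all genes. At an unadjusted p under 0.05, 43 of the 78 differed, against 46.7% of all genes.

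Large-subunit genes were lower in 15 of 46 cases with a median of -0.28, and small-subunit genes in 14 of 32 with a median of -0.33. The count of calls depended on single libraries, the medians less so. Leaving out replicate 1, 2 or 3 of FO B (Aged) left 9, 17 and 5 of the 78 called, all lower, while the share of all genes called lower fell to 10.1%, 11.7% and 10.7%. In this order, the share of the 78 was near that of all genes, above it and below it. Leaving out replicate 3 of ABCs left 25 called lower and 1 higher, a count for which no share of all genes is given here. The median of the 78 stayed between -0.36 and -0.19 over these fits. The labels give FO B and ABC libraries of aged mice the same numbers without saying that they come from the same animals. With the replicate number as a block 12 of the 78 were called, all lower, against 15% of all genes, so that the set was near the share of all genes. Of the genes called lower that are named below, Rpl10 lost its call in that fit (FDR = 0.0737).

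**Figure D3:**
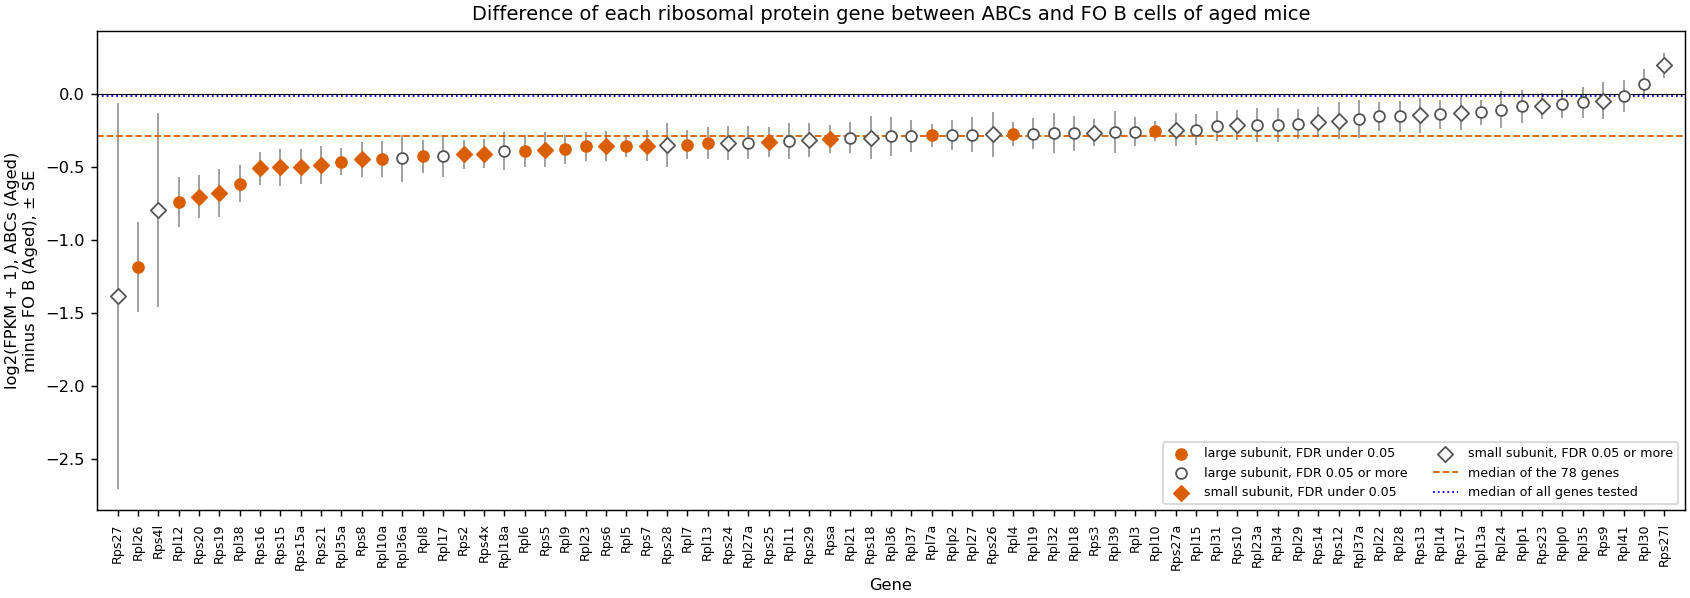
Difference in log2(FPKM + 1) between ABCs and FO B (Aged) for 77 of the 78 ribosomal protein genes (vertical axis, ± SE, n = 3 libraries each), in order of size, with filled symbols for an FDR under 0.05. The 29 filled symbols are all below 0, the dashed line marks the median of -0.29 and Rpl30 and Rps27l at the right end lie above 0.

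Rpl12 showed one of the largest falls. Its product lies at the base of the stalk of the large subunit, where elongation factors bind. It was at 1149, 1112 and 1342 FPKM in FO B (Aged) and at 805, 839 and 543 FPKM in ABCs. All ABC libraries were below all FO B libraries, also without the low replicate 3. The difference was -0.74 on the log2 scale (SE 0.17, limma FDR = 0.0139), and the FDR was 0.0537 without replicate 3 of FO B (Aged).

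Rps20, a protein of the head of the small subunit, was at 1741, 1572 and 1981 FPKM in FO B (Aged) and at 1226, 1180 and 871 FPKM in ABCs, again without overlap. It fell by 0.70 on the log2 scale (SE 0.15, limma FDR = 0.0101). Rps19, whose human counterpart is mutated in Diamond-Blackfan anaemia, was at 3796, 3653 and 4176 FPKM in FO B (Aged) and at 2720, 2792 and 1854 FPKM in ABCs. The groups did not overlap, and Rps19 fell by 0.68 (SE 0.16, limma FDR = 0.0166). Without replicate 1 or 3 of FO B (Aged) the FDR was 0.0543 or 0.0602.

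Rpl38, known for patterning defects in mice that lack 1 copy, was at 1645, 1713 and 2066 FPKM in FO B (Aged) and at 1275, 1253 and 1016 FPKM in ABCs. It had the lowest FDR of the set, with a fall of 0.61 (SE 0.12, limma FDR = 0.00848), and stayed under 0.05 in all 16 alternatives. Rps16, which reaches the tRNA site of the small subunit, was at 1344, 1279 and 1512 FPKM in FO B (Aged) and at 1032, 1044 and 836 FPKM in ABCs. Its ABC values too were below all FO B values, with a fall of 0.51 (SE 0.11, limma FDR = 0.0113).

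Rpl26, which also binds the mRNA of p53, had the largest called difference at a low level. It was at 44.5, 41.3 and 81.1 FPKM in FO B (Aged) and at 18.7, 33.9 and 18.7 FPKM in ABCs, approximately 83.3 to 403 reads per library. The groups did not overlap but each had 1 library far above the other two. The log2 difference was -1.18 (SE 0.31, limma FDR = 0.023), with an FDR of 0.0716 without replicate 1 of ABCs and 0.0562 without replicate 3 of FO B (Aged). FO B (Young) varied more than 2-fold, with 23.1, 63.9 and 68.2 FPKM.

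Rps27l went the other way from the set. It encodes a close relative of Rps27 and is known as a target of p53. It was at 270, 268 and 298 FPKM in FO B (Aged) and at 352, 304 and 303 FPKM in ABCs. The values did not overlap, though the lowest ABC value exceeded the highest FO B value by little, and the difference was 0.20 (SE 0.08, limma FDR = 0.108).

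**Figure D4:**
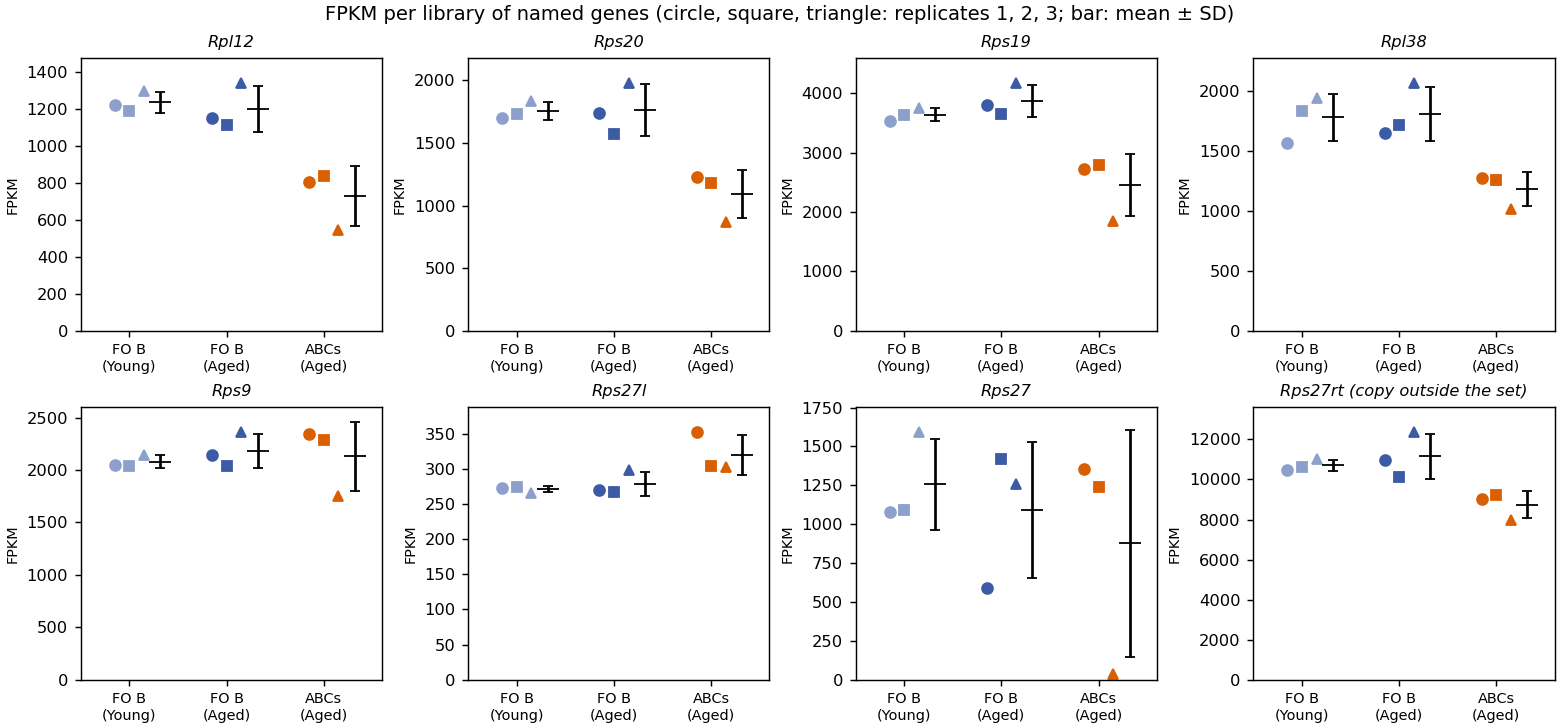
FPKM per library (vertical axis from 0) of 7 named ribosomal protein genes and of Rps27rt, a copy of Rps27 outside the set, by group, with symbols for replicates 1 to 3 and bars for the mean ± SD (n = 3). Rpl12, Rps20, Rps19 and Rpl38 are lower in all ABC libraries, Rps27l is higher, Rps9 overlaps, and Rps27 drops to 34.6 FPKM in replicate 3 of ABCs while Rps27rt is at 7993 FPKM there.

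To ask whether single genes departed from the set, the values of each library were centred on its median ribosomal protein gene. This centring moved the median of all genes to 0.32, so that values are relative to a set that was itself lower in ABCs. In this fit 5 of the 78 were called higher and 5 lower, with 30.7% of all genes called higher and 4.29% lower, and 59 of the 78 lay within 0.2 of the median gene on the log2 scale. Relative to the set, Rps27l was higher by 0.53 (SE 0.13, limma FDR = 0.00884) and passed in all 13 alternatives.

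Rpl41 was higher than the set by 0.32 (limma FDR = 0.00957), Rps9, known for its place at the mRNA entry channel, by 0.29 (limma FDR = 0.0249) and Rpl35, which lies by the exit of the peptide tunnel, by 0.28 (limma FDR = 0.0279). The call of Rpl41 ended in 4 of the 13 alternatives (FDR up to 0.109) and those of Rps9 and Rpl35 in 8 (FDR up to 0.144 and 0.159). In FPKM these 3 were near the FO B level. Rpl41 was at 4200, 4039 and 4590 FPKM in FO B (Aged) and at 4495, 4530 and 3735 FPKM in ABCs, and the groups overlapped. The genes called lower than the set were Rpl26 (-0.85), Rpl12 (-0.41), Rps20 (-0.37), Rps19 (-0.35) and Rpl38 (-0.28), with limma FDR values from 0.0145 to 0.0432. The call of Rpl38 ended in 9 of the 13 alternatives (FDR up to 0.19), that of Rps19 in 4 and those of Rpl26, Rpl12 and Rps20 in 3 each. These counts also rested on single libraries. The number called was 6 without replicate 1 of ABCs and 16 without its replicate 3, and it was 3, 6 and 2 without replicates 1, 2 and 3 of FO B (Aged). For these omissions no share of all genes is given, so that the counts are not set against one.

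The 3 proteins of the stalk, which recruits elongation factors, differed among themselves, with Rplp0 and Rplp1 near the upper end of the set and Rplp2 at its median. Rplp0 was at 1127 ± 68.9 FPKM (SD, n = 3) in FO B (Aged) and 1076 ± 110 FPKM in ABCs, a log2 difference of -0.07 (limma FDR = 0.598). Rplp1 was at 1626 ± 174 and 1534 ± 155 FPKM, a difference of -0.08 (limma FDR = 0.583). Rplp2 was at 1448 ± 166 and 1189 ± 81.2 FPKM, with no overlap between the groups and a difference of -0.28 (limma FDR = 0.0687). The differences of Rplp0 and Rplp1 were at 0.02 and 0.003 without replicate 3 of ABCs and at 0.08 and 0.10 with quantile normalization, so that neither has a direction. Rplp1 was also at 0.001 without replicate 3 of FO B (Aged).

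Of the genes with a duplicate or tissue-restricted partner, Rps4x, Rpl10, Rpl3 and Rpl39 had differences between -0.41 and -0.25, and Rps27 and Rps27l lay outside this range. Rps4x on chromosome X, a gene of the small subunit, was lower in ABCs by a log2 difference of -0.41 (SE 0.10, limma FDR = 0.0174). Rpl10, which joins the large subunit late in assembly, was lower by -0.25 (SE 0.07, limma FDR = 0.0297), with -0.03 (FDR = 0.763) under quantile normalization. Rpl3, close to the peptidyl transferase centre, differed by -0.26 (limma FDR = 0.0791) and Rpl39, which lines the exit tunnel, by -0.26 (limma FDR = 0.199). Rps4x was at an FDR of 0.0559 without replicate 1 and 0.0619 without replicate 3 of FO B (Aged), and Rpl10 lost its call without replicate 1 or 2 of ABCs or replicate 1 or 3 of FO B (Aged), with FDR values from 0.0506 to 0.101.

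Rps27 and Rps4l had the widest errors. Rps27 was at 593, 1419 and 1256 FPKM in FO B (Aged) and at 1352, 1242 and 34.6 FPKM in ABCs, a log2 difference of -1.38 (SE 1.32, limma FDR = 0.444) that became 0.35 without replicate 3 of ABCs. Of its read-length windows 98.4% are identical to transcripts of other genes, among which Rps27rt shares the most. The files list this retrocopy at 7993 to 12374 FPKM. Rps27 and Rps27rt together summed to 11542, 11562 and 13630 FPKM in FO B (Aged) and to 10354, 10483 and 8028 FPKM in ABCs. The part listed under Rps27 was 0.431% in replicate 3 of ABCs against 5.13% to 13.1% elsewhere. The sum was lower in every ABC library than in any FO B library, unlike Rps27 on its own.

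Rps4l was at 3.38, 8.19 and 4.02 FPKM in FO B (Aged) and at 3.18, 6.97 and 0.166 FPKM in ABCs, the last value being worth approximately 1.2 reads. The log2 difference of -0.79 (SE 0.66, limma FDR = 0.382) lay within the spread of the libraries.

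Genes of the set that differ in structure or level had similar differences. Across the 78 genes, Spearman's rho of the log2 difference with transcript length was -0.064, with coding length -0.028 and with mean FPKM 0.12, as descriptions over genes that share the same libraries. The 29 hosts of small nucleolar RNAs had a median difference of -0.29 with 13 called lower, and the 49 others had -0.29 with 16 called lower. The 25 genes with over 50% of their windows in other genes had a median of -0.29, as had the 53 others. The 47 genes with a pyrimidine run at a listed start had a median of -0.28 and the 10 genes without it -0.30, while 24 genes with CCGGAAG and 33 without it had medians of -0.29 and -0.28.

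Other genes of like length or level had medians nearer to 0 or above it. Between 500 and 1000 bases, 609 other genes had a median log2 difference of 0.09 and 40 ribosomal protein genes -0.28. Under 500 bases, 136 other genes had a median of -0.14 and 10 ribosomal protein genes -0.33. Averaged over the 6 libraries of this comparison, 57 other genes reached 1000 FPKM and had a median of 0.04 with 14% called lower, and of 41 ribosomal protein genes, with a median of -0.28, 16 were called lower.

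The 2 FO B groups were compared to ask what age alone does within a subset. None of the 78 was called, against 0.346% of 10122 genes called higher and 0.119% lower (limma FDR under 0.05, n = 3 libraries each), and 1 had an unadjusted p under 0.05, against 12.8% of all genes. The median log2 difference was 0.01 with quartiles of -0.03 and 0.04, against 0.002 over all genes with quartiles of -0.09 and 0.09. The mean was at or above that of young mice for 48 of the 78 genes and below it for 30, while 50.6% of all genes were above it, and it was below for 67 of the 78 without replicate 3 of FO B (Aged). The 95% interval of the difference lay within 0.5 on either side of 0 for 75 of the 78 genes, the exceptions being Rps4l, Rps27 and Rpl26, and the median SE was 0.07.

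The gene with an unadjusted p under 0.05 was Rps4l, at 9.27, 12.7 and 14.9 FPKM in young mice and 3.38, 8.19 and 4.02 FPKM in aged mice. All aged values were below all young values, and the log2 difference was -1.16 (SE 0.28, limma FDR = 0.136). It passed the threshold only without replicate 2 of FO B (Aged) among the 16 alternatives, with -1.48 (FDR = 0.025). The groups did not overlap in 1 gene downward, Rps4l (against 8.96% of all genes), and in 1 gene upward, Rpl3 (against 9.64%), which had a difference of 0.09 (limma FDR = 0.538).

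ABCs were also set beside FO B cells of young mice. This comparison shares the ABC libraries with the one above, so that it is not independent of it. Here 34 of the 78 (43.6%) were called lower and 2 higher, against 19.1% and 21.6% of 10438 genes (limma FDR under 0.05, n = 3 libraries each), and 54 had an unadjusted p under 0.05, against 49.8% of all genes. The mean was lower in ABCs for 75 of the 78 and for 51.3% of all genes, with a median log2 difference of -0.28 over the set. In 56 genes (71.8%, against 27.6% of all genes) all ABC libraries were below all young libraries. Without replicates 1, 2 and 3 of FO B (Young) the number called was 20, 15 and 12, all lower, with 12.5%, 12.7% and 13% of all genes called lower, and without replicate 3 of ABCs it was 44, of which 41 were lower and 3 higher. With the replicate number as a block it was 18, all lower, against 15% of all genes. No share of all genes is given for the fit without replicate 3 of ABCs.

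Rps27l was 1 of the 2 genes called higher, by 0.24 (SE 0.07, limma FDR = 0.0396). It was at 272, 274 and 266 FPKM in young mice, under every ABC value. The call ended in 11 of the 16 alternatives, including each omission of a young library and of replicate 1 of ABCs, with FDR values up to 0.403.

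Of the genes called lower, Rps4l had the largest difference, -1.95 (SE 0.63, limma FDR = 0.043), a call that ended in 9 of 16 alternatives, among them the omission of replicate 1 of ABCs (FDR = 0.0764) and of replicates 1, 2 and 3 of FO B (Young) (FDR = 0.0812, 0.111 and 0.125). It was followed by Rpl12 (-0.79, FDR = 0.00746), Rps20 (-0.70, FDR = 0.00516), Rpl38 (-0.59, FDR = 0.00694), Rps19 (-0.59, FDR = 0.0207) and Rps16 (-0.55, FDR = 0.00429). Of these, Rps19 was not called when replicate 1, 2 or 3 of FO B (Young) was left out (FDR = 0.0571, 0.0645 and 0.0707). Rps27 was at 1081, 1094 and 1593 FPKM in young mice and differed by -1.66 (SE 1.29, limma FDR = 0.339), or by 0.07 without replicate 3 of ABCs.

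Genes that work with the ribosome were examined in the same fit of ABCs against FO B (Aged), where 19.4% of all genes were called higher and 16.5% lower. Of 56 ribosome biogenesis genes, 25 were called lower and 1 higher, with a median log2 difference of -0.28. Gar1, a protein of the particles that convert uridine to pseudouridine, was at 17.3 ± 2.86 FPKM (SD, n = 3) in FO B (Aged) and 8.12 ± 1.36 FPKM in ABCs (limma FDR = 0.00264). Fbl, the methyltransferase fibrillarin, fell by 0.91 (limma FDR = 0.00141), and Grwd1, which binds histones and ribosome precursors, fell by 0.83 (limma FDR = 0.00139). Gnl3l, a nucleolar GTPase, was called higher by 0.27 (limma FDR = 0.047), a call that ended in 12 of 16 alternatives and with the omission of any of the 6 libraries (FDR from 0.052 to 0.141). Without replicate 3 of ABCs, 23 of the 56 genes were called.

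**Figure D5:**
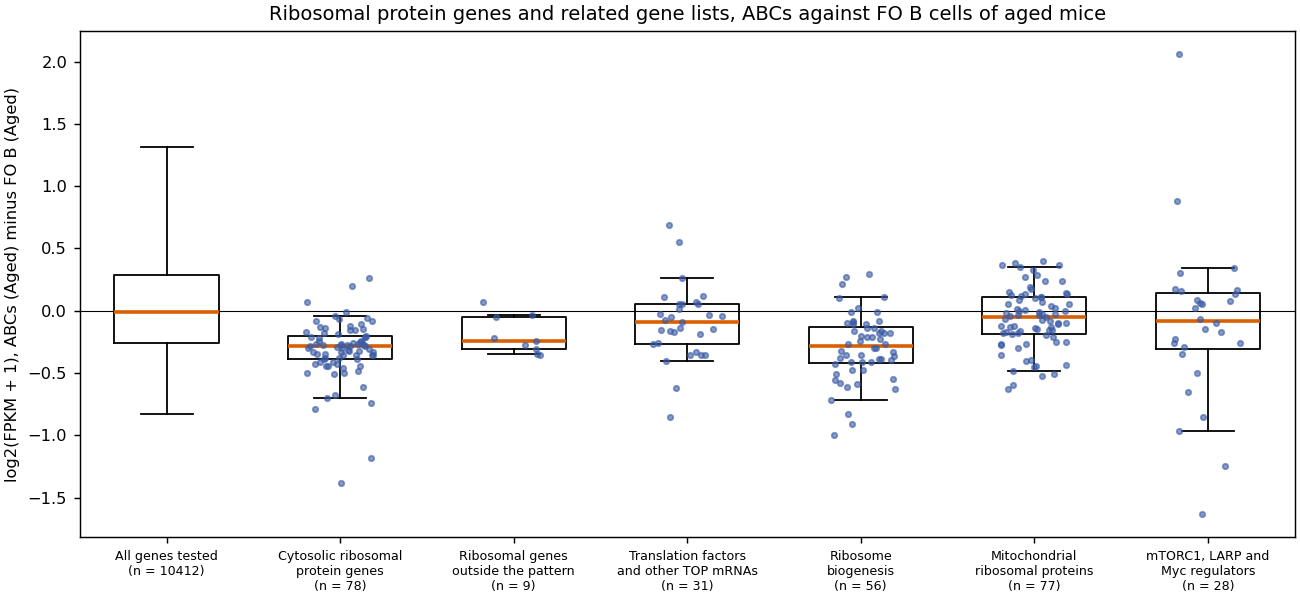
Difference in log2(FPKM + 1) between ABCs and FO B (Aged) for all genes tested, the 78 ribosomal protein genes and 5 related lists. Boxes give the quartiles and the median, whiskers the 5th and 95th percentile and points the single genes. The medians are -0.29 for the ribosomal protein genes, -0.28 for ribosome biogenesis and -0.01 for all genes.

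The other ribosomal genes outside the name pattern were 9 in number, with 1 called lower, none higher and a median of -0.24. The call was Gnb2l1, the gene of the scaffold RACK1 on the small subunit, with -0.36 (SE 0.09, limma FDR = 0.0176). It ended without replicate 2 or 3 of FO B (Aged), with FDR values of 0.0504 and 0.0648. Fau, chosen after its values were seen, encodes a ribosomal protein fused to a ubiquitin-like protein and differed by -0.30 (limma FDR = 0.0659).

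Translation factors and other TOP mRNAs, for which the start motif was not examined here, were called lower in 8 and higher in 3 of 31 cases with a median of -0.09. The largest falls were those of Snhg1 (-0.86, limma FDR = 0.0122) and Gas5 (-0.62, limma FDR = 0.00214), noncoding hosts of small nucleolar RNAs, and of Hnrnpa1 (-0.41, limma FDR = 0.035), a splicing factor. The rises were those of Nap1l1 (0.69, limma FDR = 0.000406), a histone chaperone, Vim (0.55, limma FDR = 0.00665), the intermediate filament vimentin, and Ybx1 (0.26, limma FDR = 0.0241), an mRNA-binding protein. The number called was 6, 7 and 6 without replicates 1, 2 and 3 of FO B (Aged). Snhg1 was not called without replicate 1, Hnrnpa1 not without replicate 1 or 3 of FO B (Aged) or replicate 1 of ABCs, and Ybx1 lost its call whenever 1 replicate of FO B (Aged) was left out.

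Mitochondrial ribosomal proteins, a separate set encoded in the nucleus, were divided, with 12 of 77 called lower, 6 higher and a median of -0.05. The share called lower was near the 16.5% of all genes, and the share called higher was below the 19.4% of all genes. Mrps28 (-0.63, limma FDR = 0.00309), Mrps18b (-0.59, limma FDR = 0.000876) and Mrpl23 (-0.52, limma FDR = 0.00248) fell most. Mrpl27 (0.40, limma FDR = 0.0326), Mrpl52 (0.37, limma FDR = 0.0155) and Mrpl40 (0.36, limma FDR = 0.00639) rose most. The number called was 10, 9 and 9 without replicates 1, 2 and 3 of FO B (Aged), Mrpl27 was not called without replicate 1 or 2 of either group, and Mrpl52 not without replicate 1 of ABCs or replicates 1 or 3 of FO B (Aged).

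Of 28 genes around mTORC1, LARP proteins and Myc, 6 were called lower and 4 higher, with a median of -0.08. As a whole the list was near the shares of all genes, 16.5% lower and 19.4% higher. Myc, the activator of ribosome synthesis, was at 34.8 ± 1.78 FPKM (SD, n = 3) in FO B (Aged) and 14.3 ± 2.95 FPKM in ABCs, a fall of 1.24 on the log2 scale (SE 0.15, limma FDR = 0.000862). Larp1, the binder of TOP mRNAs, was at 16.6 ± 3.33 and 7.95 ± 1.03 FPKM, a fall of 0.96 (SE 0.17, limma FDR = 0.00422). The sestrins, stress-induced inhibitors of mTORC1, were divided. Sesn1 fell by 1.63 (SE 0.42, limma FDR = 0.0216), and Sesn2 rose by 2.06 (SE 0.14, limma FDR = 0.000108) from 3.50 ± 0.524 to 17.8 ± 2.56 FPKM.

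Mxd1, a Myc antagonist, rose by 0.88 (limma FDR = 0.0183) and Rragc, a GTPase that brings mTORC1 to the lysosome, by 0.34 (limma FDR = 0.0128). The list had 5 and 4 genes called without replicates 1 and 3 of FO B (Aged). Sesn1 and Mxd1 lost their calls whenever 1 replicate of FO B (Aged) was left out, and Rragc without its replicate 3. Between aged and young FO B cells, 0 of the 199 genes of these 5 lists were called by limma, and 20 (10.1%) had an unadjusted p under 0.05, against 12.8% of all genes.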

How the data were processed

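RNA-seq of 9 libraries of sorted mouse splenic B cells was used, 3 per group, with groups taken from the sample labels. The authors prepared cDNA from total RNA (SMART-Seq HT) and tagmented libraries (Nextera XT), mapped single-end reads to mm10 and deposited 1 FPKM value per gene symbol and library. The submitters' processing notes list TopHat2 2.1.1, Bowtie2 2.2.8, SAMtools 0.1.18 and Cuffdiff 2.2.1. The gene annotation and the treatment of multiply mapped reads were not given in the sources used here. Counts were not used.

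From the deposited FPKM values, log2(FPKM + 1) was modelled by group in limma 3.58.1 (R 4.3.3, lmFit, moderated with eBayes and its variance trend) for genes averaging 1 FPKM or more across the 6 libraries compared. The Benjamini-Hochberg adjustment ran over all genes tested, with a threshold of 0.05 and no limit on the fold. Fold changes on this scale understate the change of low genes. Depth, approximately 7350000 to 9070000 mapped reads per library, was estimated from the value of 1 read in 3076 genes. Annotation was GENCODE M21 and RefSeq (GRCm38.p6). Python 3.11.15 with numpy 2.4.6, pandas 2.3.3 and matplotlib 3.10.9 was used for the rest, and the fit was tested on simulated data.

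The genes of the set and the lists were chosen with earlier results of these data known. Named genes were, per comparison, the 6 largest rises and falls at an FDR under 0.05, the 5 highest and 5 lowest genes, stalk genes, genes with a duplicate copy, genes next to the limit of 1 FPKM, and per related list the 3 largest rises and falls. The labels number the libraries but do not say which share an animal, and where samples share 1 source the p-values measure only the spread between libraries. Alternatives were other pseudocounts, filters, scalings and thresholds, a block for the replicate number, no variance trend, a joint fit of the 9 libraries, and leaving out each library. For the related lists they were added after the data were seen. Results of 2 genes that enter the counts are not reported here by name.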

Additional observations from a re-analysis of the deposited data

How the results depend on the processing

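Counts of calls among the 78 genes, main value first, were 29 for ABCs against FO B (Aged), 36 for ABCs against FO B (Young), 10 relative to the median gene of the set and 0 between FO B groups. In the same order for the first 3, they were 9, 20 and 6 with no filter on low values. An FDR threshold of 0.01 gave 2 and 9 for the first pair, and eBayes without a trend gave 3 relative to the median gene. Leaving out 1 library gave 5 to 26, 12 to 44, 2 to 16 and 0 to 1. Where no share of all genes is given, these counts show only how the calls of the 78 depend on the setting. They do not show an excess over all genes. All 9 libraries in the fit, TPM and upper quartile scaling, quantile normalization, and other pseudocounts or a filter at 5 FPKM kept the counts within 1.5 times, and the median of the 78 genes in both ABC comparisons stayed below 0 in every fit. Direction turned for genes near 0 or with 1 stray library: against FO B (Aged), Rplp0 (0.076) and Rplp1 (0.095) with quantile normalization, Rplp0 (0.017), Rplp1 (0.003) and Rps27 (0.347) without replicate 3 of ABCs and Rplp1 (0.001) without replicate 3 of FO B (Aged); Rps27 between FO B groups (0.112) without replicate 1 of FO B (Aged); and Rps27 against FO B (Young) (0.069) without replicate 3 of ABCs. When 1 library was left out, the 3 genes ranged from -0.126 to 0.017 (Rplp0), -0.142 to 0.003 (Rplp1) and -2.277 to 0.347 (Rps27) against FO B (Aged), and Rps27 from -0.517 to 0.112 between FO B groups and from -2.555 to 0.069 against FO B (Young). The cause was not tested. The share of summed FPKM moved by less than the larger SD of the 2 groups compared, over -3.46 to -2.02 points for ABCs minus FO B (Aged) and -0.427 to 0.364 points between FO B groups when 1 library was left out. Without replicate 3 of ABCs it moved by more than the SD of FO B (Aged), 0.80 points, and by less than that of ABCs, 1.62 points.

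With the replicate number as a block, 12 genes were called against FO B (Aged), 18 against FO B (Young), 8 relative to the median gene and 0 between FO B groups. As given above, the first of these counts was near the share of all genes. Of the genes named in the related lists, Mrpl27 (FDR = 0.0503), Ybx1 (0.0503), Hnrnpa1 (0.0716) and Gnl3l (0.0907) lost their calls in this fit. The sample descriptions give FO B and ABC libraries of aged mice the same numbers, but no source used here says that they share animals, and the correlations do not settle it. Deviations of same-numbered libraries correlated at 0.083, -0.018 and 0.109 for ABCs and FO B (Aged), at -0.054, 0.141 and -0.096 for the FO B groups and at 0.033, 0.015 and -0.04 for ABCs and FO B (Young), and not every library correlated best with its own number.

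For the related lists against FO B (Aged), an FDR of 0.01 left 13 of 26 calls in ribosome biogenesis, 8 of 18 in mitochondrial ribosomal proteins, 4 of 11 in translation factors and TOP mRNAs, 4 of 10 in the mTORC1 list and 0 of 1 in the ribosomal genes outside the pattern. The last list had 2 calls with a pseudocount of 0.1, a filter at 5 FPKM or eBayes without a trend, 4 with all 9 libraries or TPM and 3 with quantile or upper quartile scaling, and translation factors had 7 without a trend. Leaving out 1 library gave 20 to 23, 9 to 16, 6 to 12, 4 to 10 and 0 to 1 calls, in the order of the lists above. The shares of all genes called in these fits are not given beside the list counts.

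Depth limits Rps4l, which rests on approximately 1.2 reads in replicate 3 of ABCs. Rpl26, at approximately 83.3 reads or more per library, had coefficients of variation of 37.0% to 48.2% within groups, and the cause was not tested. No depth resolves reads from identical stretches of copies such as Rps27 and Rps27rt.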

Other observations

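Rpl34, like Rps27, has a copy that the files list at a higher level. Rpl34-ps1 was at 1950.4 to 1975.3 FPKM in replicates 1 and 2 of ABCs and 1423 FPKM in replicate 3, against 1971 to 2278 FPKM in the 6 FO B libraries. The part of their sum listed under Rpl34 was 8.41% to 9.76% in all 9 libraries, without the shift seen for Rps27. Rps3a1, the gene of a small-subunit protein whose symbol falls outside the name pattern, was at 1559, 1468 and 1655 FPKM in FO B (Aged) and at 1690, 1636 and 1589 FPKM in ABCs, with overlap between the groups and a log2 difference of 0.07 (limma FDR = 0.487). The NK cell list summed to 24.4 to 38.0 FPKM in ABCs and 0.6 to 1.96 FPKM in FO B cells. Nearly all of the sum in ABCs was Prf1 (24.1 to 38.0 FPKM), while Ncr1, Klrb1c and Gzma stayed at or below 0.303 FPKM there. The germinal centre list summed to 13.6 to 18.8 FPKM in ABCs and 26.1 to 39.4 FPKM in FO B cells. Within the latter list Bcl6 was lower in ABCs (5.27 to 8.04 FPKM against 23.9 to 36.4 FPKM in FO B cells), whereas Mki67 (1.83 to 3.49 against 0.361 to 0.675 FPKM) and Top2a (3.45 to 8.40 against 1.49 to 2.54 FPKM) were higher in every ABC library. Neutrophil markers reached 21.4 FPKM in replicate 3 of FO B (Aged), the library in which the ribosomal protein genes were highest. Elsewhere they reached at most 7.5 FPKM, in replicate 2 of FO B (Young). A link between these markers and the ribosomal protein genes was not tested.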
